A study of Homo sapiens with 2 samples.

Results

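The insulin-like growth factors, their clearance receptor and their binding proteins were described in U87MG, an established human glioblastoma line. The set holds 10 genes chosen by name: the ligands IGF1 and IGF2, the receptor IGF2R and the binding proteins IGFBP1 to IGFBP7. The choice was made with earlier results of these data known. All 10 names were found, in 11 of the 58735 rows of the deposited gene table, because IGF2 has 2 rows. The cells grew for 1 week in stem cell medium as glioma spheres, after lentiviral infection with a pGIPZ control shRNA or with an shRNA against TRIP13, an AAA+ ATPase of the spindle checkpoint, and puromycin selection of stable clones. Both groups therefore share the line, the vector type and the selection. How many clones each library represents is not given in the sources used here. Since a group is 1 library, differences have no replicate error, test or p-value, and what follows describes 2 libraries, not the treatments.

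Insulin-like growth factors are secreted peptides that signal through the receptor tyrosine kinases IGF1R and INSR to PI3K and MAPK and promote growth and survival. In body fluids and matrix they are held by high-affinity binding proteins, which limit access to the receptor or store the ligand until a protease releases it. IGF2R, also known as the cation-independent mannose 6-phosphate receptor, takes up IGF2 for degradation and sorts lysosomal enzymes. In glioma, several of the binding proteins are known as secreted products of mesenchymal-type tumour cells and of tumour vessels.

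TRIP13 stood at 11.9 FPKM in the control library and, against the label, at 23.1 FPKM in the library labelled with its shRNA. FPKM relates fragments to gene length and to a library total, so levels of different genes can be set side by side. The shRNA it carried is thus uncertain. It is named by its label throughout, as the library labelled TRIP13 shRNA, and directions are those between the labels. In each pair of values joined by "against", the library labelled TRIP13 shRNA comes first. Depth was 19903836 recovered reads in that library and 18871063 in the control library, a ratio of 1.05 that the deposited values do not correct for. Of 10 glioma and neural stem markers, all 5 whose mean FPKM reached 1 lay below 0 on the log2 scale, where 39.6% of all tested genes lay. VIM had 427 against 442 FPKM and CD44 112 against 115, so on that scale they lay only at -0.05 and -0.04. The glial lineage factor OLIG2 had 0.339 against 2.72 and the intermediate filament NES 2.21 against 5.23. OLIG2 reached a mean FPKM of 1 through the control library alone, so it could only lie below 0. SOX2 and PROM1 had at most 2 and 5 reads in either library, and the astrocyte marker AQP4 had 0 in both. The stem cell markers SOX2 and PROM1 of the labelled glioma spheres were thus at or near 0.

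Genes are compared as the log2 ratio, formed after adding 1 to each FPKM and with the control library as the denominator. It understates the difference of low genes. For FPKM ratios a 95% interval (exact, Clopper-Pearson) was taken from how the recovered reads divided between libraries, and for levels an exact Poisson interval. Either interval holds counting error alone, as these reads have no molecular identifiers. A size rule, log2 ratio at or beyond 1 or -1, was applied where the mean FPKM reached 1.

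IGFBP4 and IGFBP5 were the members that passed the size rule, both on the low side, where 4.19% of all tested protein-coding genes lay, so their sequences upstream of the start are shown here, with that of IGF2R for comparison. Of the 10 members, 7 had a window in the RefSeq promoter table (build GRCh38.p14), the others being IGF2, IGFBP1 and IGFBP7. Each line gives the 250 bases before the annotated start, read in the direction of the gene, and none of these bases lies in a GENCODE exon. Capitals mark matches to the TATA-type strings TATAAA and TATTTAA and to the E-box CACGTG, searched on both strands. These strings were chosen with the sequences in view.
IGFBP4, chr17:40443200-40443449, plus strand: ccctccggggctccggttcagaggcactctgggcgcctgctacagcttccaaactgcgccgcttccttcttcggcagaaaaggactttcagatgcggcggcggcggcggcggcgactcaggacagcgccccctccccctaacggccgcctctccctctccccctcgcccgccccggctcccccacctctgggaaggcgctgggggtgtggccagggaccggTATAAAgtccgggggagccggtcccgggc
IGFBP5, chr2:216695550-216695799, minus strand: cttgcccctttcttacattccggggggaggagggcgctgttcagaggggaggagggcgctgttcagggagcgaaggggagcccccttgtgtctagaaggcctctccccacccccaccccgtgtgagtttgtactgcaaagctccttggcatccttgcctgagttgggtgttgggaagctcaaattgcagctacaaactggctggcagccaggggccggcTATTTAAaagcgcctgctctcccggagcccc
IGF2R, chr6:159968832-159969081, plus strand: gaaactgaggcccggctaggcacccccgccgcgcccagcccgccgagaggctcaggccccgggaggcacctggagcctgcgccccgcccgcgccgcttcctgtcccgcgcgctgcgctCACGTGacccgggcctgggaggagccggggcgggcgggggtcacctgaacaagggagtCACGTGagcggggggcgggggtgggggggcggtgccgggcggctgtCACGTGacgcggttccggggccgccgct

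The IGFBP4 window held TATAAA 29 bases before the start, and the IGFBP5 window held TATTTAA 31 bases before it. Over 35116 windows of this length, 10.7% held TATAAA and 4.17% held TATTTAA. Neither string was found in the IGF2R window. That window held CACGTG 3 times, beginning 132, 74 and 28 bases before the start, where 6.34% of all windows held it at least once and 0.0797% at least 3 times. CACGTG was not found in the IGFBP4 and IGFBP5 windows. The windows of IGFBP2, IGFBP3, IGFBP6 and IGF1, not shown, held none of the 3 strings. Other TATA-like strings, such as the tatata in the IGFBP3 window, were not searched, so no contrast between members is read from these matches. A match is a string of letters and no measured binding site.

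The ligands gave no reads. IGF1 (ENSG00000017427, hg38 chromosome 12, 102395874 to 102481744, minus strand) had 0 reads in both libraries. Both rows of IGF2 (ENSG00000167244, chromosome 11, 2129112 to 2149603, and ENSG00000284779, 2129112 to 2158658, minus strand) also had 0 reads in both. These zeros may cover only part of each gene. Of the merged exon length of the IGF2 rows, 75.0% and 90.0% is shared with each other or with further annotated genes such as INS-IGF2, and of that of IGF1, 82.4% lies opposite exons of the long noncoding gene HELLPAR. How reads over shared bases were counted is not given in the sources used here. Over the unshared bases, 1429 in IGF1 and 1744 and 584 in the IGF2 rows, a count of 0 allows up to 3 reads, or 0.108, 0.0888 and 0.265 FPKM. Ligand expression above those limits was not detected, and expression seen only through shared bases cannot be told from these values. The IGF2 neighbours INS, INS-IGF2, IGF2-AS, MIR483, TH and the imprinted noncoding RNA H19 also had 0 reads in both libraries. INS-IGF2, IGF2-AS and MIR483 lie over the IGF2 rows, and INS over INS-IGF2, so their zeros may not be separate from those of IGF2. TH and H19 lie apart. MRPL23, the 1 gene of 10 in that neighbourhood list past the filter, had 8.81 against 9.12 FPKM, and its interval of 0.853 to 1.09 includes 1. Below the filter, KCNQ1OT1 had 99 against 255 reads, LSP1 0 against 24 and CDKN1C 1 against 7.

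**Figure D1:**
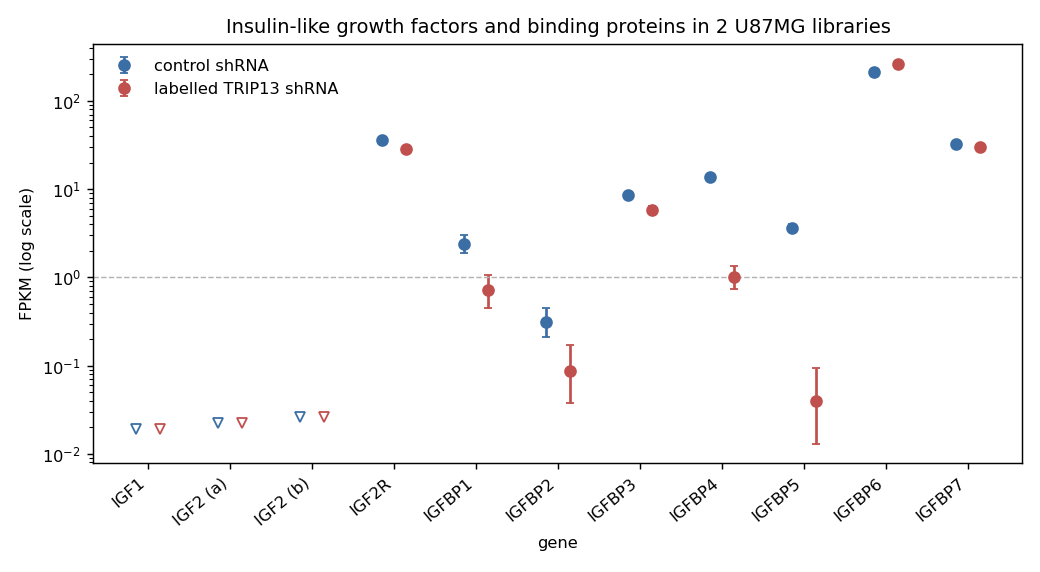
FPKM (log scale) of each gene in the control library (blue) and in the library labelled TRIP13 shRNA (red), 1 library each. Bars are 95% Poisson counting intervals, open triangles stand at the level of 3 reads over the whole gene where a library had 0, (a) and (b) are the IGF2 rows ENSG00000167244 and ENSG00000284779, and the dashed line is 1 FPKM. IGFBP6 is highest in both libraries, and IGFBP4 and IGFBP5 show the widest gaps between libraries.

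IGFBP6, a binding protein that prefers IGF2 over IGF1, was the most abundant member by far. The control library had 212 FPKM, number 116 among protein-coding genes by level. The library labelled TRIP13 shRNA had 262 FPKM, number 92. IGFBP6 was the 1 member with a positive log2 ratio, 0.31, and an FPKM ratio of 1.24 (1.20 to 1.28). The log2 ratio lay between 0.17 and 0.31 over all alternatives run. IGFBP6 (ENSG00000167779) lies at chromosome 12, 53097436 to 53102345, plus strand, and shares no exon bases with other annotated genes.

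IGFBP4, which holds ligand away from the receptor until the protease PAPPA cuts it, showed the lowest log2 ratio of the set. The control library had 13.6 FPKM from 580 reads, and the library labelled TRIP13 shRNA had 1.01 FPKM from 43 reads. The level was 13.5-fold lower (9.89 to 18.8) with a log2 ratio of -2.86, at number 31 from the lowest among 10671 protein-coding genes. Over the alternatives that log2 ratio ran from -3.63 with a pseudocount of 0.1 to -1.63 with one of 5. IGFBP4 (ENSG00000141753) lies at chromosome 17, 40443461 to 40457731, plus strand, and shares no exon bases with other genes.

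IGFBP5, a matrix-bound binding protein and also a PAPPA substrate, was close to absent in the library labelled TRIP13 shRNA. It had 5 reads there and 453 in the control library, or 0.0400 against 3.63 FPKM. The level was 90.6-fold lower (38.5 to 280), and the log2 ratio was -2.15, at number 73 from the lowest. With a pseudocount of 0.1 the log2 ratio was -4.73. It passed the filter through the control library alone, and at 0.0400 FPKM in the other library this fixed that it met the size rule. IGFBP5 (ENSG00000115461) lies at chromosome 2, 216672105 to 216695525, minus strand. Of its exon length, 4.63% lies opposite exons of AC007563.2, which had 0 reads in both libraries.

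IGFBP1 (ENSG00000146678, chromosome 7, 45888357 to 45893668, plus strand), best known as a secreted product of liver and decidua, stood at 0.718 against 2.40 FPKM, from 23 and 77 reads. It was 3.35-fold lower (2.08 to 5.59), but its log2 ratio of -0.99 fell just short of the size rule. It met the rule at -1.61 with a pseudocount of 0.1, -1.52 under TPM, -1.07 with the median ratio set to 1 and -1.03 with own library totals. It too passed the filter through the control library alone. IGFBP2 (ENSG00000115457, chromosome 2, 216632828 to 216664436, plus strand), often raised in high-grade glioma, was below the filter at 0.0866 against 0.314 FPKM, from 8 and 29 reads, a ratio of 0.276 (0.109 to 0.618).

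IGFBP3 (ENSG00000146674, chromosome 7, 45912245 to 45921874, minus strand), the main carrier of the growth factors in serum, stood at 5.86 against 8.51 FPKM, from 519 and 754 reads. It was 1.45-fold lower (1.30 to 1.63), with a log2 ratio of -0.47. IGFBP7 (ENSG00000163453, chromosome 4, 57030773 to 57110385, minus strand), a more distant relative with low affinity for the growth factors and a known product of tumour vessels, stood at 30.3 against 32.3 FPKM. The counting interval of the ratio, 0.938 (0.864 to 1.02), includes 1 and ends below the depth ratio of 1.05. Of its exon length, 18.9% lies opposite exons of POLR2B or IGFBP7-AS1.

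IGF2R (ENSG00000197081, chromosome 6, 159969099 to 160113507, plus strand) was the member with the most reads, 12599 in the control library and 9949 in the library labelled TRIP13 shRNA, over 17843 bases of exon. Its level was 28.8 against 36.4 FPKM, 1.27-fold lower (1.23 to 1.30), with a log2 ratio of -0.33.

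**Figure D2:**
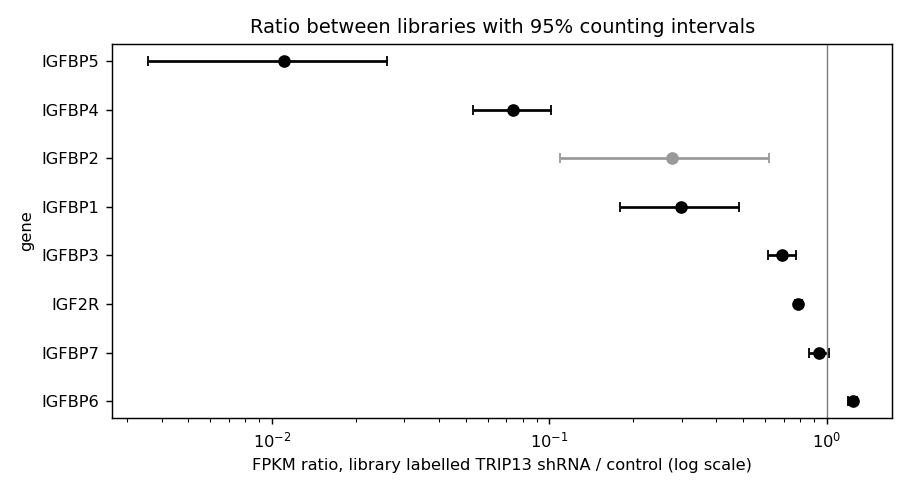
FPKM ratio of the library labelled TRIP13 shRNA over the control library (log scale) for the 8 genes with reads, with 95% exact counting intervals. Black genes passed the mean FPKM filter and grey did not. IGFBP6 lies above 1 at 1.24, the interval of IGFBP7 includes 1, and IGFBP5 lies farthest below at 0.0110.

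In the control library the order of levels was IGFBP6, IGF2R, IGFBP7, IGFBP4, IGFBP3, IGFBP5, IGFBP1 and IGFBP2, and no neighbours in it had overlapping Poisson intervals. In the library labelled TRIP13 shRNA the order was IGFBP6, IGFBP7, IGF2R, IGFBP3, IGFBP4, IGFBP1, IGFBP2 and IGFBP5. There the intervals of IGFBP7 and IGF2R overlapped, as did those of IGFBP4 and IGFBP1 and of IGFBP2 and IGFBP5. IGFBP5 thus stood above IGFBP1 and IGFBP2 in the control library and within counting error of IGFBP2 in the other. IGFBP4 was at 1.60 times the level of IGFBP3 in the control library and at 0.172 times in the other.

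The summed FPKM of IGFBP1 to IGFBP7 was 273 in the control library and 300 in the library labelled TRIP13 shRNA, a ratio of 1.10. No direction is read from it, since the ratio was 1.0 with the median ratio of all genes set to 1. Within the sum, a share that scaling does not touch, IGFBP6 took 87.3% against 77.7% and IGFBP7 10.1% against 11.9%. IGFBP4 and IGFBP5 together took 0.349% against 6.32%. Without IGFBP6 the sum was 38.0 against 60.8 FPKM, 1.60-fold lower.

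**Figure D3:**
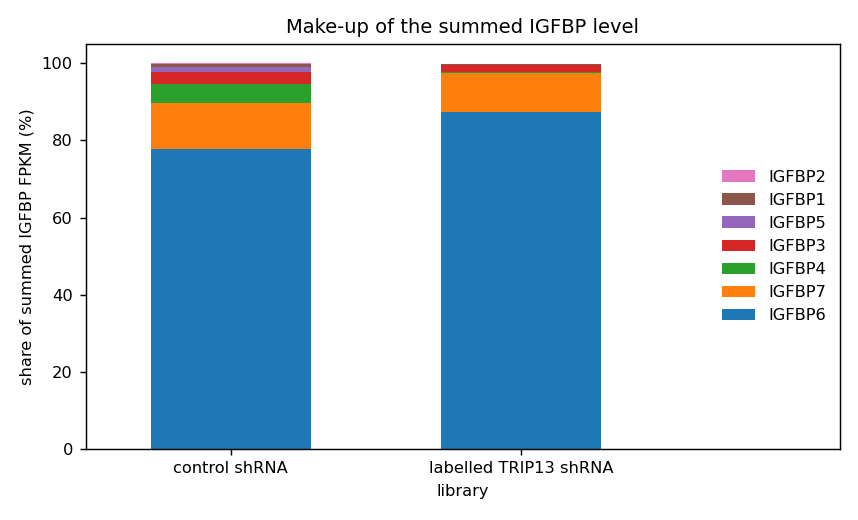
Share (%) of each binding protein in the summed FPKM of IGFBP1 to IGFBP7, in 1 library per bar. IGFBP6 fills 77.7% of the control bar and 87.3% of the other, and the bands of IGFBP4 and IGFBP5 are too thin to see in the library labelled TRIP13 shRNA.

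Of the 10 members, 7 passed the filter, and the size rule was met by 2 on the low side (IGFBP4 and IGFBP5) and by 0 on the high side. Among all 10671 protein-coding genes past the filter it was met by 4.19% on the low side and 2.17% on the high side, 6.36% in either direction. With a pseudocount of 5 the log2 ratio of IGFBP5 was -0.78, short of the rule, and a filter at 5 FPKM left IGFBP5 out. With a pseudocount of 0.1 and under each of 3 other scalings IGFBP1 met the rule too, giving 3 members on the low side. The members' median log2 ratio was -0.47, with 6 of 7 below 0, against 0.12 over all tested genes, of which 39.6% lay below 0. Of these 6, IGFBP1 and IGFBP5 passed the filter through the control library alone, so they could only lie below 0. For IGFBP5, at 0.0400 FPKM in the library labelled TRIP13 shRNA, passing the filter also fixed that it met the size rule. Its call therefore adds nothing when the 2 members are set beside 4.19%. Setting the median ratio of all genes to 1 shifted their median by -0.12, as did rescaling to TPM. Under each scaling 6 of the 7 members stayed below 0 and IGFBP6 above it. Of the binding protein genes that neighbour each other, IGFBP2 and IGFBP5 lie tail to tail 7668 bases apart on chromosome 2, and IGFBP1 and IGFBP3 tail to tail 18576 bases apart on chromosome 7. All 4 had the lower level in the library labelled TRIP13 shRNA.

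**Figure D4:**
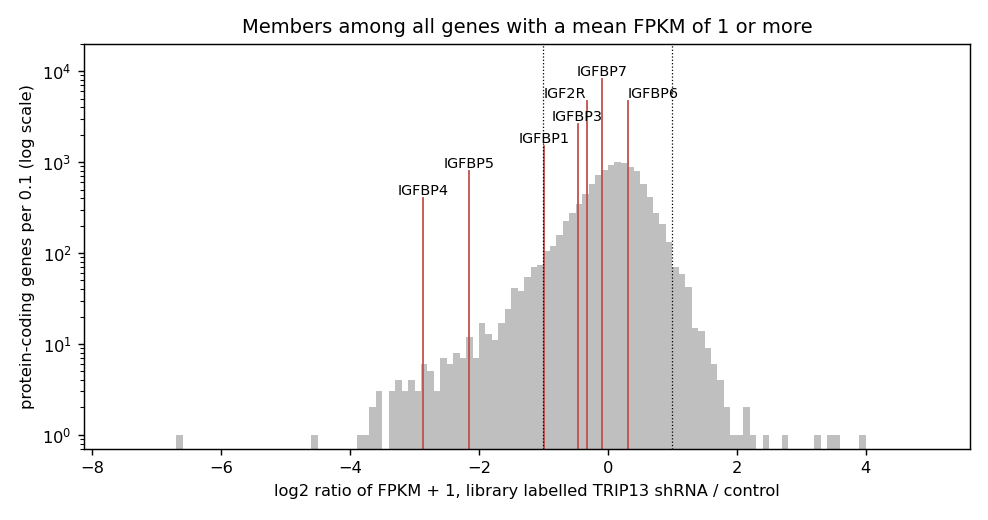
Log2 ratios of the 10671 protein-coding genes past the filter (grey, counts on a log scale), with the 7 members past the filter as red lines and the size rule as dotted lines at -1 and 1. IGFBP4 and IGFBP5 lie in the low tail, IGFBP1 at -0.99 beside the rule, and the other members near the centre.

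Among 10 receptors and adaptors, 8 passed the filter and 0 met the size rule, which 6.36% of all tested genes met. The median log2 ratio of the list was -0.17. The signalling receptor IGF1R had 2.75 against 2.67 FPKM. Its ratio was 1.03 (0.926 to 1.14), and no direction is read because a log2 ratio of 0.03 became -0.07 once all genes were scaled to a median ratio of 1. The insulin receptor INSR had 1.99 against 2.43 FPKM. Of the docking proteins that carry the signal inward, IRS1 had 24.1 against 21.6 FPKM and IRS2 4.74 against 8.88 FPKM, the lowest log2 ratio of the list at -0.78.

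Of 19 carriers, proteases and protease inhibitors, 14 passed the filter, the size rule was met by 2 on the high side and 3 on the low side, and the median log2 ratio was -0.03. Over all tested genes, 2.17% met the rule on the high side and 4.19% on the low side. PAPPA, the metalloprotease that cuts IGFBP4 and IGFBP5, stood at 11.6 against 16.3 FPKM, 1.40-fold lower (1.33 to 1.47), with 21.2% of its exon length opposite PAPPA-AS1. Its relative PAPPA2 had 1.31 against 1.07 FPKM.

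Both stanniocalcins, secreted glycoproteins that bind and inhibit PAPPA, differed about as far in opposite directions. STC1 stood at 155 FPKM in the control library and, 10.2-fold lower (9.62 to 10.8), at 15.2 FPKM in the library labelled TRIP13 shRNA. STC2 had 106 FPKM in the latter against 10.2 FPKM, 10.4-fold higher (9.81 to 11.0). STC1 was 15.3 times the level of STC2 in the control library and 0.144 times in the other, while their sum was 121 against 165 FPKM.

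Of the proteases with a wider range of targets, ADAM12, reported to cut IGFBP3 and IGFBP5, had 29.2 against 11.8 FPKM, 2.48-fold higher (2.36 to 2.61). The collagenase MMP1 had 29.1 against 98.1 FPKM and the plasminogen activator PLAT 0.671 against 2.60 FPKM. PLAT reached the filter through the control library alone, and with a pseudocount of 5 its log2 ratio of -1.11 became -0.42, short of the size rule. HTRA1, a serine protease with a binding-protein-like domain, had 112 against 139 FPKM, and the lysosomal protease CTSD 110 against 74.7 FPKM. IGFALS, which completes the serum complex with IGFBP3, had 8 against 4 reads and PLG 0 in both.

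**Figure D5:**
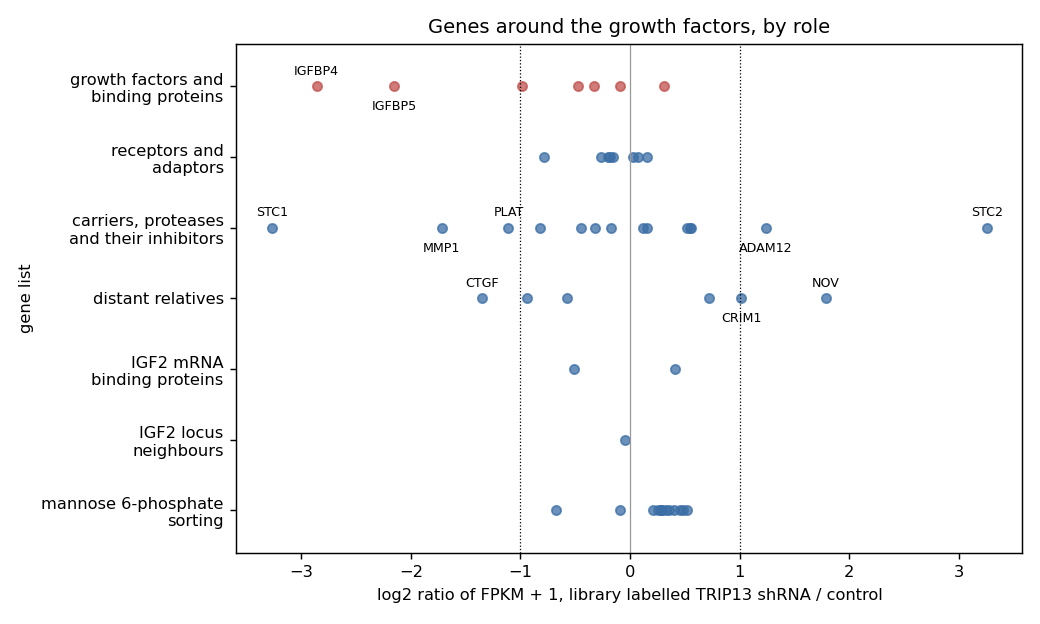
Log2 ratios of the genes past the filter, by list, with members in red and other genes in blue, and the size rule as dotted lines. Names are given for genes past the rule, and STC1 and STC2 mark the ends at -3.27 and 3.26.

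Of 10 distant relatives that share the cysteine-rich N-terminal domain, 6 passed the filter, and the size rule was met by 2 on the high side and 1 on the low side. The shares over all tested genes were 2.17% and 4.19%. NOV, a matricellular protein, had 63.2 against 17.6 FPKM, 3.60-fold higher (3.34 to 3.87), and CRIM1, a membrane protein that binds BMPs, 24.0 against 11.4 FPKM. CTGF, of the same family as NOV, had 4.17 against 12.2 FPKM, while CYR61, another close relative, had 17.6 against 10.2 FPKM. Of the 6 genes, 3 lay above 0 and 3 below. The latter included KAZALD1 at 3.78 against 6.14 FPKM and WISP2 at 0.466 against 1.81 FPKM. WISP2 passed the filter through the control library alone, and WISP1, below the filter, had 27 against 118 reads. With a pseudocount of 5 the log2 ratios of CRIM1 and CTGF were 0.83 and -0.90, short of the rule. CRIM1 was also short of it under the other scalings, at 0.88 to 0.95. The list median of 0.07 became -0.05 at a median ratio of 1 for all genes, and no direction is read for it.

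Of the proteins that bind IGF2 mRNA, IGF2BP2 had 18.8 against 27.4 FPKM and IGF2BP3 9.64 against 6.99 FPKM, with 17.9% of the latter's exon length opposite MALSU1. The third, IGF2BP1, had 3 against 2 reads.

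Most genes with which IGF2R sorts lysosomal enzymes lay on the other side from IGF2R itself, as did most tested genes. All 13 passed the filter and 0 met the size rule, which 6.36% of all tested genes met. Above 0 lay 11, and below it 2, GGA1 and SORT1, under each scaling as well. Of all tested genes, 60.2% lay above 0 as deposited. The median log2 ratio of the list was 0.29 against 0.12 over all tested genes. M6PR, the smaller mannose 6-phosphate receptor, had 57.6 against 40.8 FPKM, a ratio of 1.41 (1.35 to 1.48), with 29.3% of its exon length opposite PHC1. GNPTAB, which makes the mannose 6-phosphate tag, had 16.4 against 11.1 FPKM and the highest log2 ratio of the list, 0.52. The adaptor GGA1 had 5.85 against 9.96 FPKM and the lowest, -0.68. The level of IGF2R was 0.894 times that of M6PR in the control library and 0.50 times in the library labelled TRIP13 shRNA.

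Some markers of cells that also make binding proteins were lower beside IGFBP4 and IGFBP5, while others differed little. Of the 8 genes marking fibroblasts and pericytes, 4 reached the filter, and the list summed to 80.6 against 117 FPKM. All 4 lay below 0, where 39.6% of all tested genes lay. PDGFRB had 1.74 against 12.4 and LUM 2.08 against 7.55 FPKM, but COL1A1 had 27.4 against 29.4 FPKM. Below the filter, DCN had 33 against 386 reads, PDGFRA 3 against 97 and COL3A1 6 against 17. The interval of the RGS5 ratio, 0.595 to 1.21, includes 1. Of 6 endothelial markers 1 passed, KDR, and the list summed to 2.99 against 5.67 FPKM. Those short of the filter were PECAM1 at 1 against 45 reads, VWF at 6 against 75 and TEK at 9 against 38. CDH5 had 0 against 6 reads and CLDN5 1 read in each. The microglial markers AIF1 and CX3CR1 were at 0 in both libraries, and that list summed to 3.64 against 4.30 FPKM. Most of that sum was CSF1R, whose ratio interval of 0.759 to 1.03 includes 1. Astrocyte markers, 3 of 7 past the filter, summed to 76.8 against 137 FPKM, with ALDOC at 6.38 against 22.5. Neuron markers, 3 of 6 past it, summed to 8.46 against 9.34 FPKM, and GAD1 among them was higher, at 1.64 against 1.03 FPKM. Both libraries are from the line U87MG, so a marker here does not show that its cell type was present. In bulk RNA, fewer cells with a transcript and less of it per cell cannot be told apart. What part either had in the lower IGFBP4 and IGFBP5 was not tested.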

How the data were processed

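RNA was sequenced from 2 libraries, 1 per group, grouped by their treatment labels. The authors deposited FPKM values, 1 row for each of 58735 genes. The build hg38 and the tools featureCounts 1.5.0-p3, HISAT2 2.0.5 and edgeR appear, without roles or settings, per the submitters' processing notes. Identifiers, positions and strands of 58735 genes equalled GENCODE release 29. FPKM multiplied by gene length gave whole multiples of 1 step for 100% of values (tolerance 0.001 of a read), which gave 18871063 recovered reads in the control library and 19903836 in the other. The step was common to both, so values are not corrected for depth.

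The filter kept protein-coding genes whose mean FPKM reached 1 (10671 of 19951). A pseudocount of 1 was added, and the size rule took log2 ratios at or beyond 1 or -1. Members and lists were chosen with earlier results of these data known. Named genes were all members, TRIP13, 11 stated pathway genes, each pathway list's extremes and every pathway list gene past the size rule. Some marker genes, GENCODE neighbours and promoter strings were added with values in view. Of the insulin relatives, 0 of 8 passed the filter. Alternatives were pseudocounts of 0.1 and 5, TPM, a median ratio of 1, own library totals, no filter, a filter at 5 FPKM and every biotype. Between members' transcripts, 1 of 55 pairs shared a run of 50 bases, the IGF2 rows. The calculations were tested on simulated data. Software was scipy 1.17.1, numpy 2.4.6, matplotlib 3.10.9 and pandas 2.3.3 under Python 3.11.15.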

Additional observations from a re-analysis of the deposited data

Results flagged for a closer look

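HELLPAR, a long noncoding gene opposite IGF1 that no comparison above used, had 152 reads in the library labelled TRIP13 shRNA, above the 90 reads of the control library, a ratio of 1.69 (1.29 to 2.22). Over its length of 205012 bases this is 0.0383 against 0.0227 FPKM, far below a mean FPKM of 1.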

How the results depend on the processing

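No paired analysis was possible because there is 1 library per group. No alternative turned the direction of a single gene past the size rule. Over 33 single genes 87 alternative log2 ratios lay inside the counting interval and 78 outside, with IGF1R and GRB14 the ones that turned sign. The log2 ratio of TRIP13 was 0.74 with a pseudocount of 5 and 0.77 with a median ratio of 1. The members' median was -0.32 with a pseudocount of 5 and -0.63 under TPM. Members past the size rule on the low side fell from 2 to 1 with a pseudocount of 5, where IGFBP5 had -0.78. They also fell to 1 with a mean FPKM of 5 or more, which leaves IGFBP5 out. They became 3, with IGFBP1, under a pseudocount of 0.1, TPM, a median ratio of 1 and own totals. The 4 pathway genes past the size rule on the low side became 2 with a pseudocount of 5, 5 with a pseudocount of 0.1 or a median ratio of 1, and 6 under TPM. Of all genes, 677 were lower and 408 higher with a pseudocount of 0.1, 180 and 64 with a pseudocount of 5, 956 lower under TPM, 280 lower with a mean FPKM of 5 or more, 737 lower over every biotype and 139 higher with a median ratio of 1. Higher genes made up 34.2% of those past the size rule as deposited, 22.5% under TPM and 19.7% with a median ratio of 1. The ratio of summed IGFBP levels was 1.02 under TPM, 1.0 with a median ratio of 1 and 1.04 with own totals. Depth limits IGFBP5 and IGFBP2 most, at 5 and 8 reads in 1 library. These shifts follow from the settings. A larger pseudocount shrinks the log2 ratios of low genes most, and each scaling multiplies all genes by a common factor. The filter and biotype settings change which genes are counted. Which scaling suits these libraries was not tested.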

Other observations

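Other genes with related names, chosen after the data were seen, gave these values. IGFN1, a muscle protein with immunoglobulin and fibronectin domains that is not a growth factor, had 1641 reads in the control library and 80 in the library labelled TRIP13 shRNA, or 6.99 and 0.341 FPKM. Values that follow give the latter library first. Of the IGF-like family, IGFL3 had 3 against 29 reads, IGFL4 4 against 18, and IGFL1 and IGFL2 0 in both. The family's receptor IGFLR1 had 5 against 7 reads. GHR, the growth hormone receptor that drives IGF1 in liver, had 13 against 4 reads. The noncoding gene AIRN, inside IGF2R, had 2 against 0 reads, and IGFBP7-AS1 3 against 1.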
